A study of Mus musculus with 6 samples.

Results

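The microRNAs described here are those of the miR-290 cluster and the miR-302 and miR-367 cluster, which are best known from pluripotent cells. Their probes were taken by name from the arrays: mouse-named probes of miR-290 to miR-295, miR-302 and miR-367, and human-named probes of miR-302, miR-367, miR-371, miR-372 and miR-373, with any letter, arm, star or -P ending and without mismatch probes. What -P stands for is not given in the sources used here. This gave 43 of 2990 probes, of which 24 of 1083 mouse-named probes and 19 of 1737 human-named probes.

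RNA came from bone marrow hematopoietic stem and progenitor cells (Lin-cKit+) of 10-week-old female C57BL/6 mice. The cKO mice (n = 3) carried Rptr(flox/flox) alleles and Mx1-Cre+, and the Ctrl mice (n = 3) were littermates with the same floxed alleles that were Mx1-Cre-. Mice of both groups received pIpC, a synthetic double-stranded RNA that induces interferon, in 7 injections of 400 µg, and cells were collected 10 days after the last. Each array measured 1 mouse. The Mx1 promoter is known to answer interferon in many tissues, and Cre activity in other cells was not measured. The Ctrl mice had no Cre, and an effect of Cre and an effect of Raptor loss cannot be told apart. Raptor is an essential subunit of the kinase complex mTORC1, and the comparison addressed how its loss alters microRNA levels. The deletion was not measured on these arrays.

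In the mouse embryo and in embryonic stem cells, both clusters are transcribed as single long precursors from which several hairpins are cut. Most of their 3′ arms begin with nearly the same seed, the short stretch near the 5′ end that pairs with target messenger RNAs, and through it they speed the cell cycle and sustain self-renewal. miR-367 has another seed. The human counterpart of the mouse miR-290 cluster is miR-371 to miR-373. Transcription of both clusters is switched off as cells differentiate, and blood progenitors are not a tissue in which they are known to be abundant. Members of the miR-17 family share much of the seed and are broadly expressed in dividing cells, while let-7 microRNAs are known to oppose the self-renewal programme.

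In the GRCm38.p6 annotation of RefSeq the mouse miR-290 cluster lies at chr7:3218626-3220841 with 9 microRNA genes, 7 of which fall within the span of the long non-coding RNA gene D7Ertd143e and 7 within that of Nlrp12. Most of its hairpins are on the + strand. The miR-302 and miR-367 cluster lies at chr3:127545228-127545807 on the + strand, and all 5 of its microRNA genes fall within the span of Larp7 and of the non-coding gene Gm51018. RefSeq mature sequences were matched by name and arm to 20 of the 24 mouse-named probes. An unstarred name was read as the 3′ arm and a star as the 5′ arm. The sequences of the probes themselves were not used here.

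The 3′ arms are shown because most of them carry the shared seed or one close to it. Capitals mark the seed of each arm, bases 2 to 8, which does not begin with AAGUGC in miR-293, miR-302c and miR-367.
miR-290-3p: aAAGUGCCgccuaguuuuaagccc
miR-291a-3p: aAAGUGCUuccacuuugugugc
miR-291b-3p: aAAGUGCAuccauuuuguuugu
miR-293: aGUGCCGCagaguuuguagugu
miR-294: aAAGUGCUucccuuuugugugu
miR-295: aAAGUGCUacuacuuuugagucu
miR-302b: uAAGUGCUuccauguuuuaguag
miR-302c: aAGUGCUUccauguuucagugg
miR-302d: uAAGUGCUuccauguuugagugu
miR-367: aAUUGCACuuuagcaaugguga
The seed AAGUGCU was shared by 5 probes, those of miR-291a-3p, miR-294, miR-295, miR-302b and miR-302d. The letters AAGUGC occur in 8 of the 20 matched members and in 1.19% of 1679 mouse mature sequences.

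The 7 matched 5′ arms of the miR-290 cluster are shown because 1 of them, miR-290-5p, read the maximum of every array. Capitals again mark bases 2 to 8.
miR-290-5p: aCUCAAACuaugggggcacuuu
miR-292-5p: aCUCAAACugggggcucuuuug
miR-293*: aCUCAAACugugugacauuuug
miR-294*: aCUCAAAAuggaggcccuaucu
miR-295*: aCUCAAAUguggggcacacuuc
miR-291a-5p: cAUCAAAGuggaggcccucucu
miR-291b-5p: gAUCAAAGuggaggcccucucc
The seed CUCAAAC was shared by the first 3 of these, and AUCAAAG by miR-291a-5p and miR-291b-5p. A run of 5 G bases (GGGGG) occurs in 2 of the 20 matched members, miR-290-5p and miR-292-5p, and in 2.38% of all mouse mature sequences.

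Values are relative intensities as deposited, on a linear scale. The 38 Randomer probes, which carry random sequence, gave the background. Their 95th percentile, called the Randomer level below, ranged over 0.377 to 0.431 in cKO and 0.423 to 0.463 in Ctrl. All mouse-named probes had a median of 0.434 to 0.481 in cKO and 0.427 to 0.474 in Ctrl. Of 10 microRNAs known from blood cells, 7 exceeded the Randomer level on all 6 arrays. The groups separated with cKO higher for 6 of the 10, as for 15.8% of all mouse-named probes. They separated with cKO lower for 0, against 3.88%. At a limma adjusted p under 0.05, 2 were higher, as were 6.46% of all mouse-named probes, and 0 were lower, against 0.369%. miR-142-5p read 1.57, 1.67 and 2.22 in cKO and 1.18, 1.17 and 1.34 in Ctrl. miR-142-3p, one of the most blood-restricted, read 0.417, 0.463 and 0.443 in cKO and 0.420, 0.446 and 0.409 in Ctrl, and the groups overlapped. It exceeded the Randomer level on 2 of 3 cKO arrays and on 0 of 3 Ctrl arrays. The level differs by array: 0.443 was over it in cKO mouse 3 (0.377), and 0.446 was under it in Ctrl mouse 2 (0.463). Of 8 probes for microRNAs restricted to other tissues, 2 exceeded the level on all 6 arrays (miR-375 and miR-9).

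Most members lay at background. On single arrays 10 to 12 of the 24 mouse-named members exceeded the Randomer level in cKO and 9 to 11 in Ctrl. For the 19 human-named members the counts were 6 on each cKO array and 4 to 5 on the Ctrl arrays. The share of all probes over the level was larger on every cKO array than on any Ctrl array. Of all mouse-named probes, each cKO array had 58.4% to 63.8% over it, against 46.4% to 52.7% for each Ctrl array. Of all human-named probes, the shares were 53.5% to 58.2%, against 40.6% to 47.3%. Counts of arrays over the level for single members are to be read beside these shares. On all 6 arrays 8 mouse-named members (33.3%) and 4 human-named members (21.1%) exceeded the Randomer level, against 40.6% of all mouse-named and 36.7% of all human-named probes. The miR-290 cluster held 7 of the 8 mouse-named members above the level, out of 14 probes, and the miR-302 and miR-367 cluster 1 of 10. All 4 human-named members above it belonged to miR-371 to miR-373, out of 6 probes, and none to miR-302 and miR-367, out of 13. Against the highest Randomer probe of each array, only miR-290-5p, miR-290-3p and miR-292-3p and, among human names, miR-371-3p, miR-371-5p and miR-373* were higher on all 6 arrays.

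**Figure D1:**
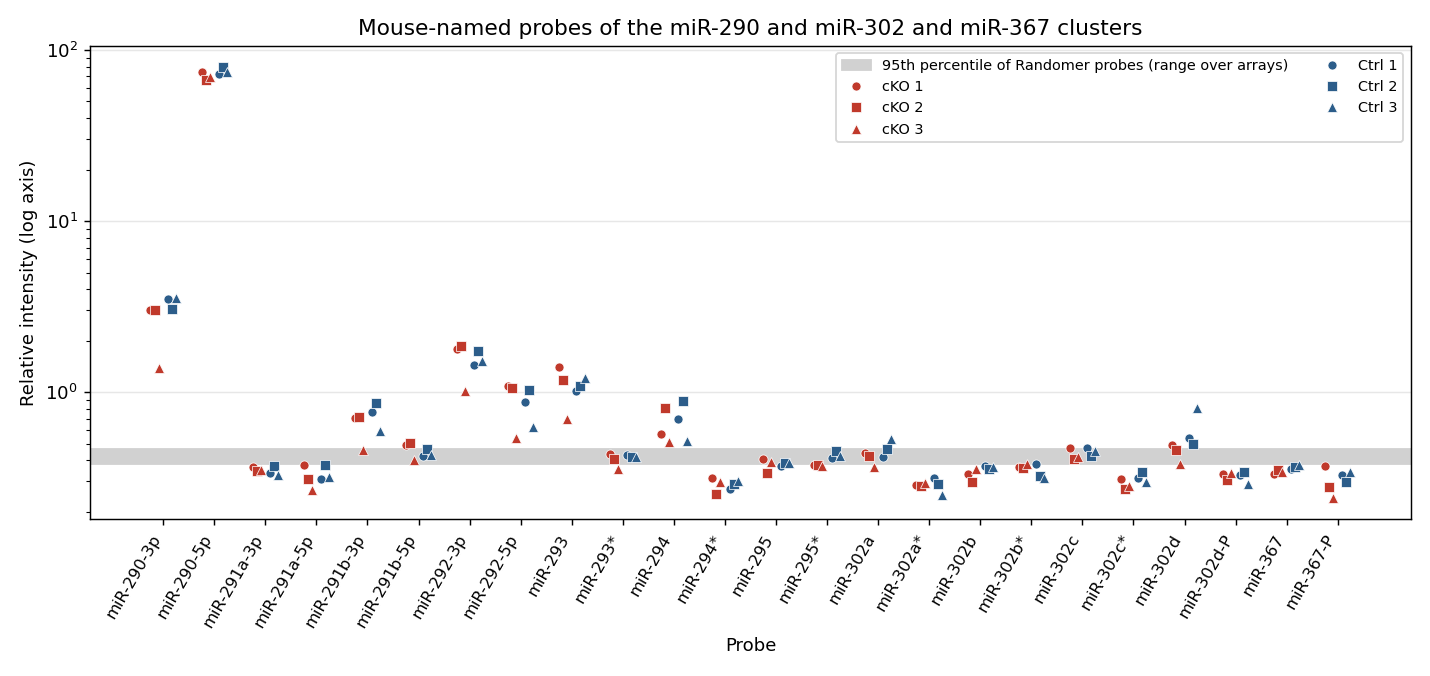
Relative intensity (log axis) of the 24 mouse-named probes on each array, cKO in red and Ctrl in blue, with symbols for the mouse number and a grey band for the range of the Randomer level (0.377 to 0.463). miR-290-5p sits at the array maximum, the other miR-290 members over the Randomer level on all 6 arrays lie between 0.459 and 3.53, and of the miR-302 and miR-367 probes miR-302d alone exceeds the Randomer level of its own array on all 6 arrays.

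The seed did not sort the members by signal. Of the 5 probes with the seed AAGUGCU, 2 exceeded the Randomer level on all 6 arrays (miR-294 and miR-302d), 2 on none (miR-291a-3p and miR-302b) and miR-295 on 1. Probes for near-identical sequences can share signal, so a value belongs to the probe and not with certainty to the microRNA in its name. Reverse transcription used random octamer primers on total RNA per the labels, which does not separate mature microRNAs from their precursors.

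The probe of miR-290-5p, the 5′ arm of the cluster's lead hairpin, could not be compared between groups. It read 74.4, 66.4 and 69.6 on the cKO arrays and 72.6, 79.1 and 74.1 on the Ctrl arrays. Each of these values is the maximum of its array, read here as the 16-bit scanner limit of 65535 divided by 1 constant per array. On that reading the spread reflects the constants, and neither the level nor the difference of this probe is reliable. It was the 1 mouse-named probe at the maximum on all 6 arrays, and 4 human-named probes were as well.

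The 3′ arms with measurable signal did not pass the test. miR-290-3p, one of the cluster's seed-bearing arms, read 3.03, 3.01 and 1.38 in cKO and 3.48, 3.07 and 3.53 in Ctrl. All 3 cKO values were below all 3 Ctrl values, though cKO mouse 3 stood far below the other 2. Its log2 difference was -0.53 ± 0.34 (SE, n = 3 each; limma adjusted p = 0.517), with a 95% interval of -1.25 to 0.20. Without cKO mouse 3 the difference was -0.15 ± 0.25 (limma adjusted p = 0.846), and after quantile normalization it was -1.04.

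miR-302d, of the second cluster, read 0.488, 0.459 and 0.379 in cKO and 0.539, 0.494 and 0.806 in Ctrl. The groups did not overlap, Ctrl mouse 3 was the highest, and the value of cKO mouse 3 was barely over that array's Randomer level of 0.377. Its log2 difference was -0.45 ± 0.18 (SE, n = 3 each; limma adjusted p = 0.215), with a 95% interval of -0.84 to -0.05. Without Ctrl mouse 3 it was -0.23 ± 0.16 (limma adjusted p = 0.681). This was the single mouse-named member with an unadjusted p under 0.05 (0.0307), against 16.7% of all mouse-named probes, and 2.12% that were lower. Its human-named counterpart, hsa-miR-302d, lay under the Randomer level on all 6 arrays, at 0.331, 0.271 and 0.336 in cKO and 0.257, 0.278 and 0.311 in Ctrl.

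The other 3′ arms above background overlapped between the groups. miR-292-3p read 1.79, 1.87 and 1.02 in cKO and 1.45, 1.73 and 1.51 in Ctrl. miR-293, whose seed is set off from that of its neighbours, read 1.40, 1.18 and 0.693 in cKO and 1.02, 1.09 and 1.20 in Ctrl. In both, cKO mice 1 and 2 were at or above most Ctrl values and cKO mouse 3 was below all of them. Their log2 differences were -0.05 ± 0.28 and -0.07 ± 0.26 (SE, n = 3 each; limma adjusted p = 0.962 and 0.948).

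miR-291b-3p read 0.709, 0.719 and 0.459 in cKO and 0.762, 0.861 and 0.591 in Ctrl. miR-294, among the most abundant microRNAs of mouse embryonic stem cells, read 0.571, 0.807 and 0.510 in cKO and 0.695, 0.887 and 0.517 in Ctrl. Mouse 3 was the lowest of its group for both probes, in cKO and in Ctrl. Their log2 differences were -0.24 ± 0.21 and -0.15 ± 0.22 (SE, n = 3 each; limma adjusted p = 0.690 and 0.854).

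Among 5′ arms, miR-292-5p read 1.09, 1.06 and 0.537 in cKO and 0.873, 1.03 and 0.626 in Ctrl. miR-291b-5p read 0.489, 0.506 and 0.398 in cKO and 0.425, 0.463 and 0.426 in Ctrl, above the Randomer level on 3 of 3 cKO arrays and on 1 of 3 Ctrl arrays. Again mouse 3 was lowest in cKO for both, and the groups overlapped. The log2 differences were 0.04 ± 0.28 and 0.08 ± 0.13 (SE, n = 3 each; limma adjusted p = 0.974 and 0.858).

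The remaining seed-bearing 3′ arms were at or near background. miR-291a-3p read 0.365, 0.345 and 0.349 in cKO and 0.338, 0.370 and 0.326 in Ctrl. miR-295 read 0.404, 0.338 and 0.392 in cKO and 0.368, 0.386 and 0.383 in Ctrl, over the Randomer level on 1 cKO array. Among the starred 5′ arms, miR-293* was over it on 1 array in each group, at 0.433, 0.406 and 0.353 in cKO and 0.428, 0.417 and 0.419 in Ctrl, and miR-302b* on 1 cKO array, at 0.363, 0.359 and 0.381 in cKO and 0.379, 0.322 and 0.316 in Ctrl. The groups overlapped for all 4 probes, and no fold is given where both groups lie under the Randomer level.

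In the miR-302 and miR-367 cluster, miR-302a read 0.438, 0.425 and 0.367 in cKO and 0.419, 0.464 and 0.534 in Ctrl, over the Randomer level on 2 of 3 arrays in each group. miR-302c read 0.473, 0.405 and 0.415 in cKO and 0.470, 0.425 and 0.453 in Ctrl, also over it on 2 of 3 arrays in each group. miR-302b read 0.334, 0.299 and 0.353 in cKO and 0.368, 0.355 and 0.363 in Ctrl, and miR-367 read 0.332, 0.348 and 0.340 in cKO and 0.355, 0.362 and 0.373 in Ctrl. The last 2 separated the groups but stayed under the Randomer level on all 6 arrays. In all, 10 mouse-named members never exceeded it, at 0.241 to 0.377 in cKO and 0.249 to 0.451 in Ctrl, the probes named miR-302d-P and miR-367-P among them.

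**Figure D2:**
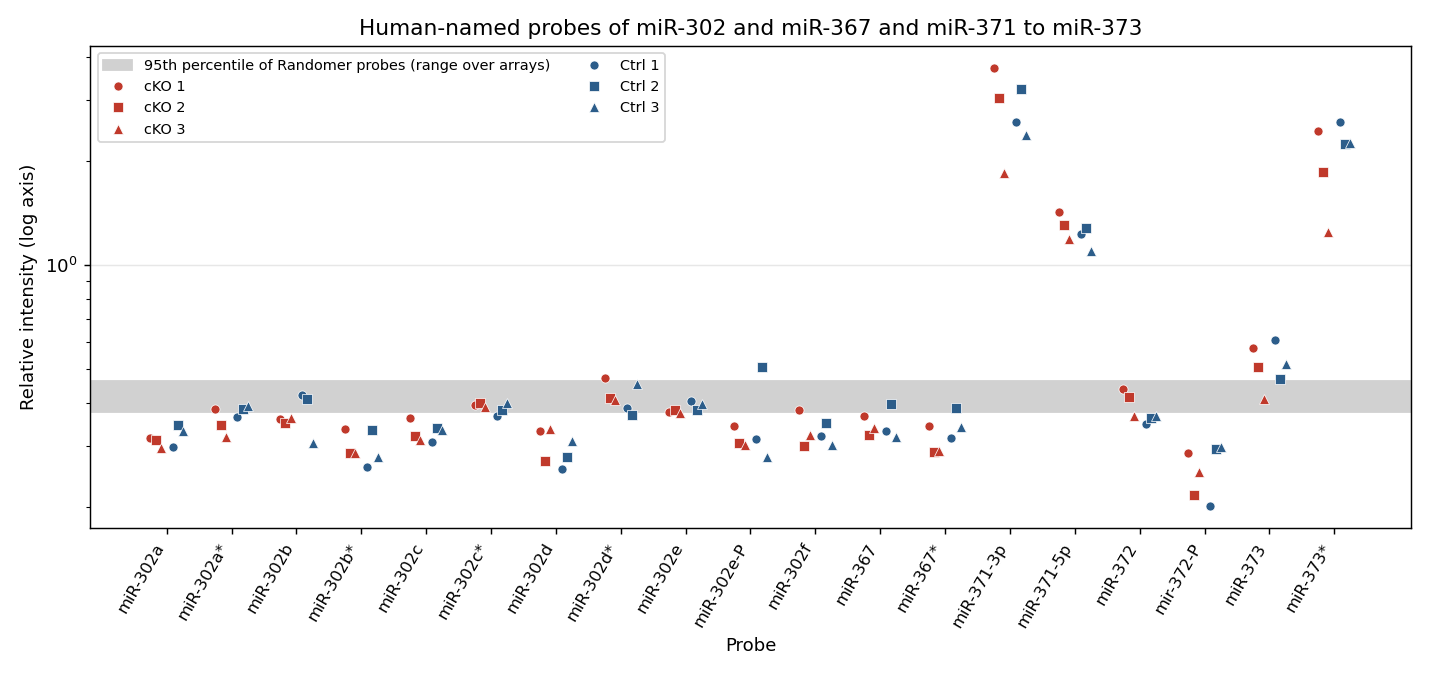
Relative intensity (log axis) of the 19 human-named probes on each array, cKO in red and Ctrl in blue, with the Randomer level as a grey band. miR-371-3p, miR-371-5p and miR-373* lie above 1 on every array, and the miR-302 and miR-367 probes lie in or under the band apart from single arrays.

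Human-named probes were read on mouse RNA, so their signal cannot be assigned to the human microRNA. Human and mouse sequences were not compared here, and a human-named probe may match the mouse microRNA of the same name. Such probes did not always read alike. For miR-302a the mouse-named probe exceeded the Randomer level on 2 of 3 arrays in each group, the human-named probe on 0. For miR-302c* the mouse-named probe exceeded it on 0 arrays, the human-named probe on 1 cKO array. hsa-miR-371-3p read 3.72, 3.04 and 1.84 in cKO and 2.58, 3.22 and 2.37 in Ctrl. hsa-miR-371-5p read 1.43, 1.31 and 1.19 in cKO and 1.23, 1.28 and 1.10 in Ctrl. The groups overlapped for both, with log2 differences of 0.03 ± 0.31 and 0.12 ± 0.20 (SE, n = 3 each; limma adjusted p = 0.998 and 0.914).

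hsa-miR-373*, the 5′ arm of the miR-373 hairpin, read 2.44, 1.86 and 1.24 in cKO and 2.59, 2.24 and 2.26 in Ctrl. cKO mice 2 and 3 were below all Ctrl values, and cKO mouse 3 was the lowest. The log2 difference was -0.41 ± 0.28 (SE, n = 3 each; limma adjusted p = 0.661), with a 95% interval of -1.03 to 0.22. It was -0.15 without cKO mouse 3 (limma adjusted p = 0.896). Without cKO mouse 1 it was -0.63 (limma adjusted p = 0.398), and after quantile normalization -0.75 (limma adjusted p = 0.299). hsa-miR-373, the seed-bearing arm, read 0.576, 0.507 and 0.411 in cKO and 0.609, 0.468 and 0.517 in Ctrl, a log2 difference of -0.10 ± 0.15 (limma adjusted p = 0.897).

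hsa-miR-372, known from human embryonic stem cells, read 0.439, 0.416 and 0.366 in cKO and 0.348, 0.361 and 0.365 in Ctrl. All cKO values were above all Ctrl values, by a small margin for cKO mouse 3. It exceeded the Randomer level on 2 of 3 cKO arrays and on 0 of 3 Ctrl arrays, and its log2 difference of 0.18 ± 0.10 did not pass (SE, n = 3 each; limma adjusted p = 0.535). With its Ctrl values raised to the Randomer level of their arrays, the fold of cKO over Ctrl was 0.915. Among the other human-named members, hsa-miR-302d* exceeded the level on 3 of 3 cKO arrays and 1 of 3 Ctrl arrays, at 0.473, 0.414 and 0.408 in cKO and 0.386, 0.369 and 0.454 in Ctrl, with overlapping groups. The probe hsa-miR-302e-P exceeded it on 1 Ctrl array, at 0.342, 0.306 and 0.302 in cKO and 0.315, 0.507 and 0.278 in Ctrl, and hsa-miR-302c* on 1 cKO array, at 0.389. The 11 human-named members that never exceeded it read 0.217 to 0.385 in cKO and 0.201 to 0.422 in Ctrl.

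The seed-bearing human-named arms of miR-302 were among those 11. hsa-miR-302a read 0.317, 0.312 and 0.295 in cKO and 0.298, 0.345 and 0.332 in Ctrl. hsa-miR-302b read 0.358, 0.350 and 0.361 in cKO and 0.422, 0.409 and 0.305 in Ctrl. hsa-miR-302c read 0.362, 0.321 and 0.312 in cKO and 0.309, 0.338 and 0.333 in Ctrl. The groups overlapped for all 3, as for hsa-miR-367*, the 5′ arm of miR-367, at 0.343, 0.288 and 0.291 in cKO and 0.316, 0.387 and 0.340 in Ctrl.

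Across the members, 0 of 24 mouse-named and 0 of 19 human-named probes passed limma's test at an adjusted p under 0.05, while 6.83% of all mouse-named and 2.01% of all human-named probes did. At an unadjusted p under 0.05 there was 1 mouse-named member, lower in cKO, and 0 human-named members, against 12.4% of all human-named probes. The lowest adjusted p was 0.215 among mouse-named and 0.535 among human-named members. The groups did not overlap for 5 mouse-named members, all lower in cKO (miR-290-3p, miR-295*, miR-302b, miR-302d and miR-367), where 3.88% of all mouse-named probes were lower without overlap. The groups separated with cKO higher for 0 mouse-named members, against 15.8% of all mouse-named probes. Of these 5, only miR-290-3p and miR-302d exceeded the Randomer level. The one human-named member without overlap, miR-372, was higher, as were 11.5% of all human-named probes, and 0 were lower, against 4.72%. An adjusted p above the threshold does not show that levels were equal: the intervals of the members above background reach from -1.25 to 0.71 on the log2 scale.

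The result depends on what the arrays are scaled to. With the average of 6 control probes, 4 for snoRNAs and 2 for GAPDH, taken off each array, 13 of 24 mouse-named and 11 of 19 human-named members were called lower in cKO, and so were 28.6% of all mouse-named and 41.0% of all human-named probes. That average was itself 0.58 higher in cKO on the log2 scale (exact permutation p = 0.1, the smallest 3 arrays against 3 allow). Under that scaling miR-302d had a log2 difference of -1.02 (limma adjusted p = 0.0229) and miR-290-3p of -1.10 (limma adjusted p = 0.0360).

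**Figure D3:**
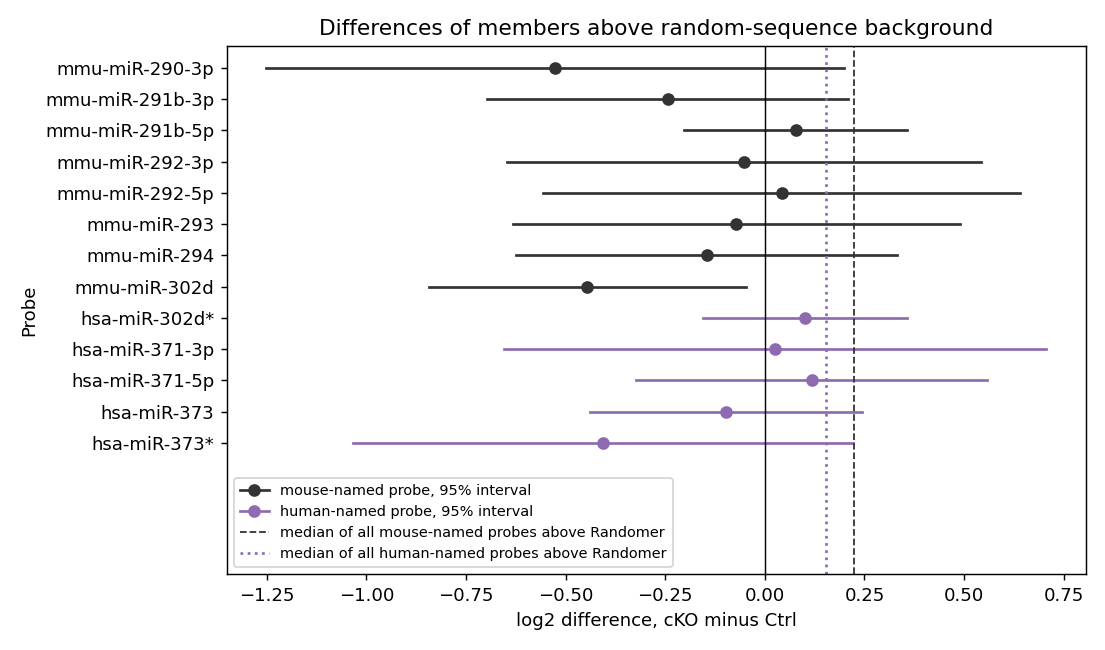
Log2 difference, cKO minus Ctrl, of the 8 mouse-named and 5 human-named members that exceeded the Randomer level on all 3 arrays of at least 1 group and were not at the array maximum, with 95% intervals from limma. All intervals but that of miR-302d include 0, and the vertical broken lines mark the medians of all probes above the Randomer level (0.22 for mouse names, 0.15 for human names).

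The members above background shared a low value on the array of cKO mouse 3. All 7 mouse-named members above the Randomer level on all 6 arrays and under the array maximum had their lowest value of the 6 arrays there, as did 3 of the 4 human-named members. Among all 437 mouse-named probes of that kind, 33.0% had their lowest value on this array, and 37.4% of the 629 human-named ones. Relative to the mean of cKO mice 1 and 2, the 7 members were lower on that array by a median of 0.84 on the log2 scale, from -1.14 for miR-290-3p to -0.32 for miR-302d. The median was -0.59 for the 4 human-named members, -0.24 for all 437 mouse-named probes, -0.26 for all 629 human-named probes and -0.08 for the Randomer probes. The 6 control probes averaged 0.04 on the log2 scale on that array and -0.47 and -0.45 in cKO mice 1 and 2, against -0.95, -0.86 and -0.79 in Ctrl.

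**Figure D4:**
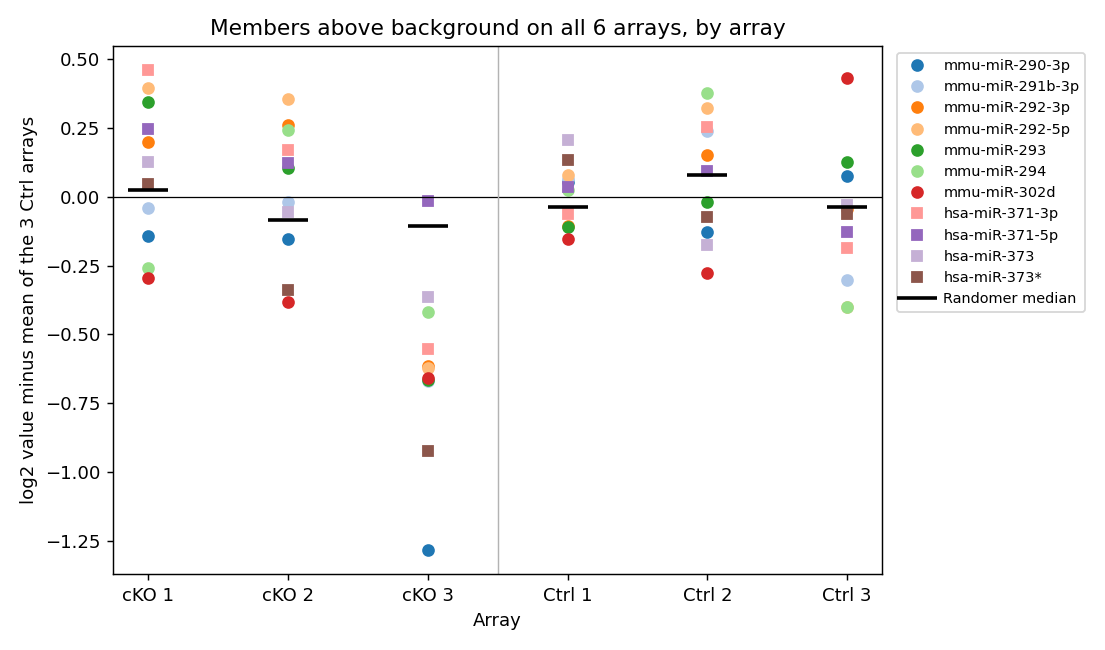
Log2 value of each member above background on all 6 arrays, minus its mean over the 3 Ctrl arrays (circles for mouse names, squares for human names, a bar for the Randomer median), by array. On cKO 3 the 7 mouse-named members lie below their values on every other array.

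With cKO mouse 3 left out, again 0 members passed limma's test, whose lowest adjusted p among the named members was 0.263. Of the 7 mouse-named members, 4 were then lower and 3 higher in cKO: miR-292-5p, miR-292-3p and miR-293 had log2 differences of 0.37, 0.23 and 0.23. Their median difference was -0.01 without that array and -0.15 with all arrays. For all mouse-named probes above background the median was 0.33 without it, over 437 probes under the array maximum, and 0.22 with all arrays, over 440 probes.

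The members were set beside seed relatives and let-7. Of 6 mouse-named miR-17 family probes, whose microRNAs drive proliferation of progenitors, 5 rose and 0 fell, where 6.46% of all mouse-named probes rose. All 6 separated the groups with cKO higher, as 15.8% of all mouse-named probes did, and the median log2 difference was 1.14. miR-20a read 4.64, 7.68 and 5.44 in cKO and 2.18, 2.26 and 2.06 in Ctrl, a 2.67-fold rise (limma adjusted p = 0.00864). miR-93 had the smallest difference of the 6, 0.61 ± 0.22 on the log2 scale (SE, n = 3 each; limma adjusted p = 0.146). All 6 differences stayed above 0 under every alternative run, but 0 of them passed without cKO mouse 2, without Ctrl mouse 1 or after quantile normalization, 1 without Ctrl mouse 3 or with snoRNA and GAPDH scaling, 2 without Ctrl mouse 2 or after median centring, and 3 with mouse-named and human-named probes in a joint fit. Of 9 let-7 and miR-98 probes 6 separated the groups with cKO higher, as 15.8% of all mouse-named probes did. Of the 9, 1 rose (let-7d, 1.70-fold, limma adjusted p = 0.0367) and 0 fell, with a median log2 difference of 0.44. That call was lost without any 1 array but cKO mouse 3, after median centring and quantile normalization and in the joint fit, and with snoRNA and GAPDH scaling 1 probe was called lower and the median was -0.14. Of 18 human-named miR-519 and miR-520 probes, primate microRNAs of which several carry the miR-302 seed, 0 passed, against 2.01% of all human-named probes. On all 6 arrays 0 of the 18 exceeded the Randomer level, against 36.7%, and their median log2 difference was -0.02. The groups separated with cKO lower for 2 of them, against 4.72%, and with cKO higher for 0, against 11.5%. For the cluster members the medians were -0.08 over 24 mouse-named and -0.02 over 19 human-named probes, and for all probes 0.04 and 0.02. Only 8 of these 24 and 4 of these 19 exceeded the Randomer level on all 6 arrays. All 6 miR-17 family probes and 8 of the 9 let-7 and miR-98 probes did. Over the 7 mouse-named members above it and under the array maximum the median was -0.15, against 0.22 for all 440 mouse-named probes above it. No test was made of the difference between these lists.

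**Figure D5:**
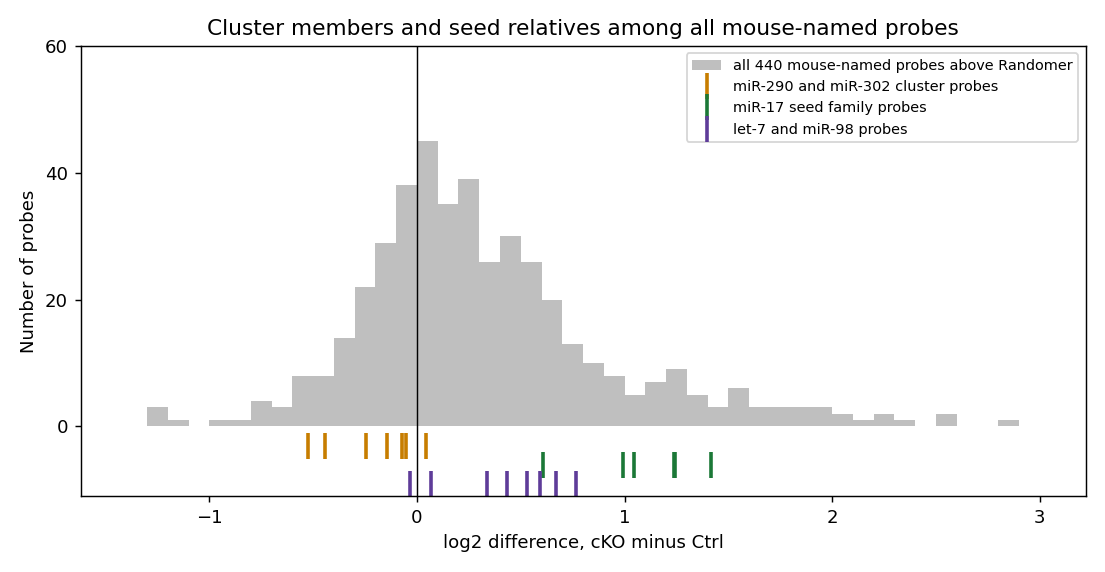
Histogram of log2 differences, cKO minus Ctrl, for the 440 mouse-named probes above the Randomer level on all 6 arrays, with ticks under it for members of the miR-290 and miR-302 clusters (the 7 under the array maximum), the miR-17 family and let-7. Cluster members lie between -0.53 and 0.04, and miR-17 family probes between 0.61 and 1.42.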

How the data were processed

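The authors' deposited table holds linear intensity values for 2990 probes on 6 1-colour arrays; how the images were read, background-corrected or normalized is not given in the sources used here. Per the labels, 5 µg of total RNA was labelled per sample and read on an Axon scanner. Each array was multiplied by 1 constant (829 to 987.5), chosen so that its maximum equals 65535. After this at least 99.97% of values are whole multiples of 0.25, within 0.01 scanner units. Deposited values were taken to log2 with no floor and no further scaling. limma 3.58.1 in R 4.3.3 (intensity trend, two-sided, Benjamini-Hochberg) was fitted over all 1083 mouse-named probes, and separately over all 1737 human-named probes, so that adjusted p-values cover each whole set. The fit was also run on simulated data with independent noise for each probe and no shift shared across an array. That run does not cover low values shared by many probes, as on the array of cKO mouse 3. The n of each group is 3 mice, which limits the precision. Plots were made in matplotlib 3.10.9 (Python 3.11.15).

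The members and lists were chosen with earlier results of these data known. Values in full are given for members at the array maximum, above the Randomer level on all 3 arrays of a group, past the test, or with the 3 largest differences in each direction, and for seed-bearing arms. Deviations from the group means of same-numbered mice correlated at 0.104, 0.124 and 0.178 over 1083 probes (other pairs -0.208 to 0.114). These ranges overlap and do not establish that same-numbered mice were pairs. As an alternative only, the numbers were treated as pairs in a fit with the replicate block. With the block 76 human-named probes passed in place of 35. Alternatives covered scaling, floor, filters, variance trend, the joint fit of both probe sets and leaving out each array.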

Additional observations from a re-analysis of the deposited data

How the results depend on the processing

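Over 18 alternatives 0 of the members tested passed in all but 1. All 24 mouse-named and 19 human-named members were tested, except 5 and 3 with the floor at 1, 9 and 5 with only probes above the Randomer level, 22 and 17 without -P probes, and 23 and 19 without probes at the array maximum. With snoRNA and GAPDH probes as the scale, under which the mean difference of all mouse-named probes was -0.42 in place of 0.15 on the log2 scale, 13 mouse-named and 11 human-named members passed as lower, and 345 mouse-named and 724 human-named probes passed in all. Scanner units, which make every array maximum equal, were added after the data were seen. Quantile normalization left 40 mouse-named and 7 human-named calls. Among human-named probes 14 passed with the floor at 1, 55 without the intensity trend and 76 with the replicate block, and the block, which paired mice by number, changed no member's call. Leaving out 1 array gave 34 to 129 mouse-named and 0 to 55 human-named calls. The 0 came without Ctrl mouse 1. Where the level was the 99th percentile of the Randomer probes or their highest probe, 4 mouse-named members in place of 9 and 3 human-named members in place of 5 exceeded it on all 3 arrays of a group. Among the named members, miR-290-3p, miR-291b-3p, miR-302d and hsa-miR-373* were lower in cKO in every alternative that held them. So was hsa-miR-367*, which never exceeded the Randomer level. In contrast, miR-292-3p ran from -0.63 to 0.23 and miR-293 from -0.65 to 0.23. For settings that changed a result the cause was not tested. The number of arrays and signals close to the Randomer level limit what could be detected.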
